A study of Capra hircus with 10 samples.

Results

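The HOX genes of cultured goat mammary gland cells are described here. They were taken as every row of the expression table whose gene identifier is that of a goat gene with a symbol HOXA, HOXB, HOXC or HOXD followed by a number. The RefSeq gene table held 37 such genes, of which 34 had a row among the 17197 genes of the expression table. HOXB1, HOXD1 and HOXD12 had no row under their identifier, the RefSeq table had no entry under the symbols HOXB4 and HOXD4, and these 5 genes are not analysed here as members. The rule goes by symbol and not by level, though it was set with earlier results of these data known.

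The expression table came from RNA sequencing of 10 libraries of mammary gland cells (breed Lanshan dairy goat), all of them kept in 3D culture. The 5 groups had 2 libraries each. Blank cells were the control, OV55666 cells overexpressed lncRNA55666, a long noncoding RNA, through a virus, KD553 cells had it knocked down, and Lv5NC and Lv3NC (5NC and 3NC in the series text) were taken as the control viruses of overexpression and knockdown in that order. The age of the goats, their number, the promoter of the viruses and the time after infection are not stated. No row carries the name lncRNA55666, so its own level is not analysed here. The labels do not tell whether libraries of 1 group are separate cultures, so p-values reflect spread between libraries that may be technical.

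HOX genes encode homeodomain transcription factors that give cells of the embryo their address along the body axis. In mammals they lie in clusters A to D, and genes at the same place in different clusters (a paralogue group, shown by the number) descend from a common ancestor. Low numbers are active first and towards the head, high numbers later and towards the tail and the tips of the limbs. Adult fibroblasts keep much of the pattern of the site they came from. In mice, Hoxc8 and Hoxc6 take part in placing and shaping the mammary glands, and loss of the group 9 genes of clusters A, B and D impairs growth of the gland in pregnancy.

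Levels are in FPKM (fragment counts divided by the length of the transcript and the size of the library), which can be compared between genes. The number of reads per library is not given. Relative depth lay between 0.98 and 1.04 across libraries, estimated from 177 genes seen in 2 to 5 libraries at nearly equal low values. Only genes with a highest value under 1.5 times the lowest were kept, which holds this estimate near 1. Equal depth is therefore not shown by it. The second Blank library had the lowest mean correlation with the others (0.983, where the rest had 0.988 to 0.992). It also stood apart in smooth muscle genes, with CNN1 at 46.2 FPKM against at most 19.7 elsewhere. Of the markers checked, 12 of 12 fibroblast genes were at 1 FPKM or more in every library, while 9 of 10 luminal epithelial genes were below 1 in every library (the other, CLDN4, reached 1.04) and KRT8, EPCAM and CDH1 were at most 0.02. All 5 endothelial markers were off, and the defining markers of basal cells (KRT14 at most 0.09, TP63 at most 0.05) and leukocytes (PTPRC at most 0.01) were near 0, while ACTA2, MYLK, CNN1, CD14 and CD68 were on. The summed FPKM of the fibroblast markers ranged from 20348 to 23043 over the libraries, and that of the luminal markers from 1.52 to 2.47. The HOX levels below are therefore those of cells rich in fibroblast RNA under a mammary gland label. In such bulk samples fewer cells of a type and less RNA per cell cannot be told apart.

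A gene was called on when it had at least 1 FPKM in every library, off when it was under 1 in every library, and mixed otherwise. By this rule 17 of the 34 HOX genes were on, 4 were mixed and 13 were off. Among all genes of the expression table, 60.7% were on and 32.7% off. The HOX genes that were on had modest levels, from a mean of 1.25 FPKM for HOXC13 to 13.4 for HOXC6. The members nearest the threshold were HOXB8, HOXC11 and HOXB6, with means of 0.973, 0.957 and 0.871 FPKM. They and HOXA11 (mean 1.47) were the 4 mixed genes. Of the off genes described here, HOXC5 had the highest mean (0.685, at most 0.88) and HOXA5 reached the highest single value (0.89, mean 0.623). With a threshold of 2 FPKM, 8 genes would be on, 9 mixed and 17 off.

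**Figure D1:**
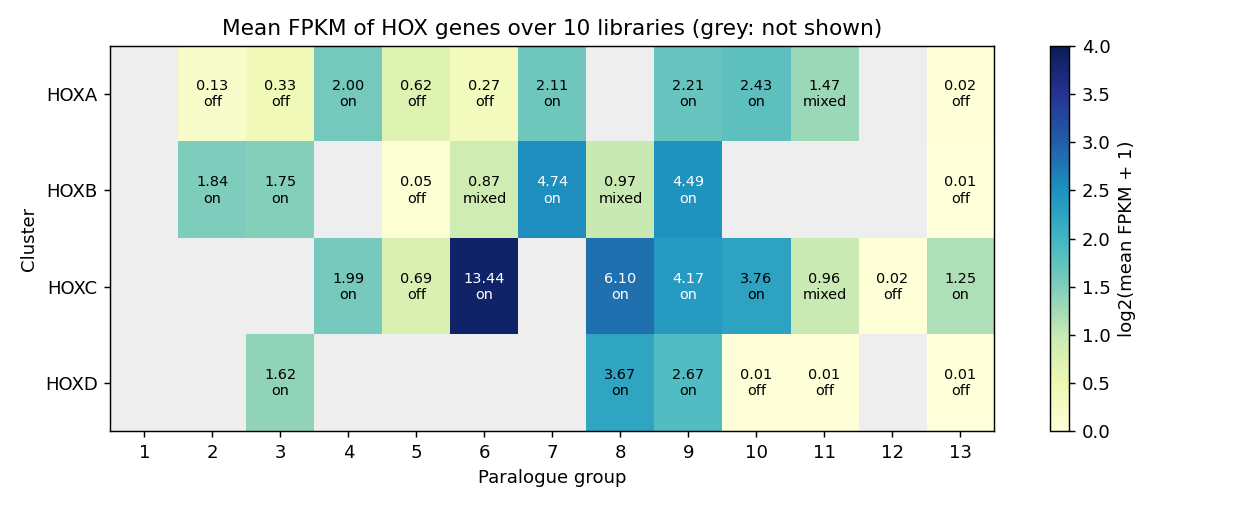
Mean FPKM over the 10 libraries for the HOX genes, by cluster (rows) and paralogue group (columns). Colour shows log2(mean FPKM + 1), the word gives the state at 1 FPKM, and grey squares are not shown. The darkest squares are HOXC6 (13.4), HOXC8 (6.10), HOXB7 (4.74) and HOXB9 (4.49), and groups 12 and 13 are near 0 outside HOXC13.

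By paralogue group, the RNA of the measured members was concentrated in groups 6 to 10. Group 9 was the only group with all 4 of its genes on: HOXB9 at a mean of 4.49 FPKM, HOXC9 at 4.17, HOXD9 at 2.67 and HOXA9 at 2.21. Groups 7 (HOXB7 and HOXA7) and 4 (HOXA4 and HOXC4) had both of their measured genes on. In groups 5 and 12 every measured gene was off. Group 6 held 21.7% of the summed mean HOX FPKM, group 9 20.1%, group 8 16.0%, group 7 10.2% and group 10 9.2%. HOXC6 alone made up 13.4 of the 14.58 FPKM of group 6. Group 4, at 5.9%, is counted without a row described as Hox-B4 (mean 2.61 FPKM, given below), so its place relative to group 10 depends on that row. Groups 11, 12 and 13 together had 8 measured genes, of which HOXC13 alone was on.

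By cluster, HOXC carried the most RNA, with 48.1% of the summed mean FPKM, ahead of HOXB (21.9%), HOXA (18.2%) and HOXD (11.9%). HOXC had 6 of 9 measured genes on, HOXB 4 of 8, HOXA 4 of 11 and HOXD 3 of 6. This order was seen in nearly every library: the HOXC sum lay between 28.8 and 37.2 FPKM, HOXB between 13.4 and 15.97, HOXA between 9.95 and 15.9 and HOXD between 7.08 and 9.18. Only the first OV55666 library had more HOXA than HOXB RNA, 15.9 against 15.0 FPKM. All HOX genes together made up 61.0 to 74.2 FPKM per library, or 0.013% to 0.016% of all FPKM.

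**Figure D2:**
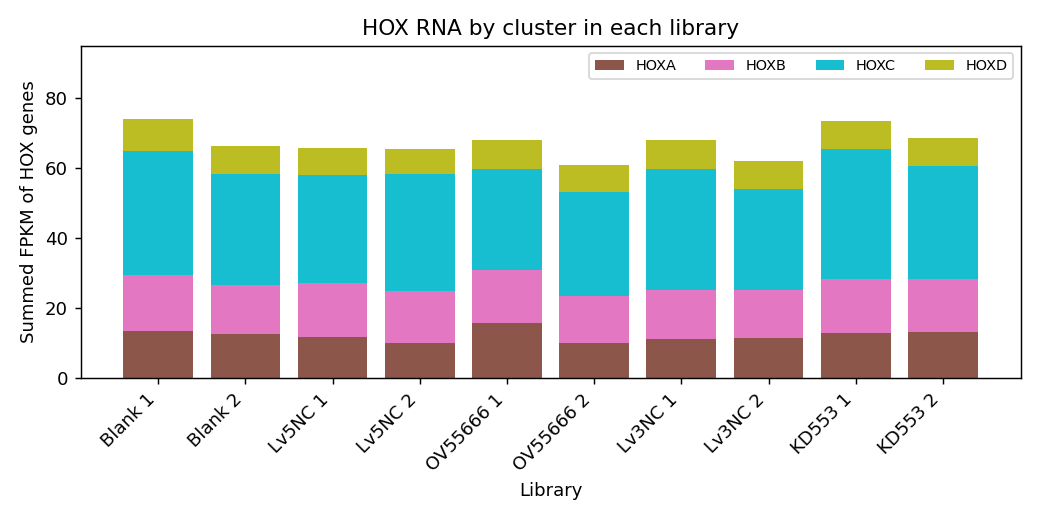
Summed FPKM of the measured HOX genes in each library, with a coloured block for each cluster. HOXC is the largest block in all 10 libraries, and the whole bar runs from 61.0 in the second OV55666 library to 74.2 in the first Blank library.

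The head end of the clusters was quiet in HOXA and active in HOXB. HOXA2, which patterns the face and ear, lay between 0.07 and 0.22 FPKM, and HOXA3, a gene of the thymus and throat region, between 0.22 and 0.45. The measured genes of groups 2 and 3 in the other clusters were on. HOXB2, a hindbrain and face gene, was at 2.29 and 1.89 FPKM in Blank, 1.70 and 1.85 in Lv5NC, 1.88 and 1.60 in OV55666, 1.76 and 1.64 in Lv3NC and 1.88 and 1.89 in KD553. It was highest in the first Blank library and the other 9 lay within 1.60 to 1.89. HOXB3 was at 2.10 and 1.63 FPKM in Blank, 1.86 and 1.86 in Lv5NC, 1.67 and 1.59 in OV55666, 1.88 and 1.60 in Lv3NC and 1.89 and 1.42 in KD553, with every group overlapping Blank. HOXD3, which shapes the first neck vertebrae, was at 2.11 and 1.66 FPKM in Blank, 1.57 and 1.26 in Lv5NC, 2.12 and 1.44 in OV55666, 1.57 and 1.54 in Lv3NC and 1.68 and 1.25 in KD553. Its high values, 2.11 and 2.12, came from 1 Blank and 1 OV55666 library. All values of these 3 genes in all 10 libraries lay above the highest value of HOXA3. The HOXD3 row also holds 2 transcripts that RefSeq does not list, and the authors' description of that row names Hox-D4 beside Hox-D3, so its level may not be that of HOXD3 alone.

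Groups 4 and 5, neighbours in the clusters, differed in state, with both measured genes of group 4 on and all 3 of group 5 off. In the HOXC cluster HOXC4 was at 1.67 and 3.22 FPKM in Blank, 1.41 and 1.80 in Lv5NC, 1.85 and 1.69 in OV55666, 2.27 and 1.88 in Lv3NC and 1.98 and 2.08 in KD553. The second Blank library, at 3.22, was 1.42 times the next highest, and the first lay within the range of the other groups. HOXC5, beside it in the cluster, stayed between 0.46 and 0.88 FPKM, with no overlap with HOXC4 in any library. In HOXA, HOXA5, a gene of lung and lower neck development, lay between 0.30 and 0.89 FPKM and HOXA6 between 0.18 and 0.42. HOXB5 was the lowest of group 5, between 0.04 and 0.09. HOXA4 was on in all libraries, with one value far from the rest: it was at 1.90 and 1.84 FPKM in Blank, 1.91 and 1.30 in Lv5NC, 5.37 and 1.17 in OV55666, 1.48 and 1.46 in Lv3NC and 1.61 and 1.95 in KD553. The first OV55666 library was 2.75 times the next highest library and 4.59 times the other OV55666 library. Over the 105 pairs of replicates of the 21 tested HOX genes, the median ratio between replicates was 1.16 and the next largest after HOXA4 was 1.95. Some off genes of the HOXA cluster, which were not among those tested, also lay higher in the first OV55666 library than in the second: HOXA2 at 0.22 and 0.07 FPKM (3.14 times), HOXA5 at 0.81 and 0.30 (2.70 times), HOXA6 at 0.42 and 0.18 (2.33 times) and HOXA3 at 0.39 and 0.24 (1.63 times). HOXA2 and HOXA6 were highest of all 10 libraries there, HOXA3 and HOXA5 were not. HOXA10 (2.47 and 1.90, 1.30 times) and HOXA11 (1.70 and 1.42, 1.20 times) were higher in the first OV55666 library by less. HOXA7, at 2.03 and 2.00, did not differ in this way, and HOXA9, at 2.03 and 2.08, did not either. Ratios of values this far under 1 FPKM, as for the off genes, are uncertain. Outside HOXA, HOXD3 (2.12 and 1.44) and HOXB6 (1.24 and 0.78) were also higher in the first OV55666 library. HOXC8 (5.40 and 6.19) and HOXC10 (2.67 and 3.37) were lower there.

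HOXC6 was the most abundant HOX gene in every library. It was at 15.02 and 12.7 FPKM in Blank, 12.8 and 13.3 in Lv5NC, 12.8 and 11.9 in OV55666, 14.6 and 12.2 in Lv3NC and 14.7 and 14.3 in KD553. Its lowest value, 11.9, was above the highest of any other HOX gene, 7.0 for HOXC8. The other genes of group 6 were far lower, with HOXA6 at most 0.42. HOXB6 was mixed, at 0.94 and 0.72 FPKM in Blank, 1.06 and 0.62 in Lv5NC, 1.24 and 0.78 in OV55666, 0.67 and 0.87 in Lv3NC and 1.02 and 0.79 in KD553. All groups overlapped for HOXB6, which crossed 1 FPKM in 3 libraries. HOXC8, which patterns the thoracic skeleton and limb motor neurons, came second, at 6.0 and 5.02 FPKM in Blank, 7.0 and 6.22 in Lv5NC, 5.40 and 6.19 in OV55666, 6.91 and 5.67 in Lv3NC and 6.52 and 6.08 in KD553. It was highest in the first Lv5NC and Lv3NC libraries and lowest in the second Blank library. The authors' description of its row also names Hox-C9, so its level may not be that of HOXC8 alone. HOXB7, a gene of the trunk, was at 5.30 and 3.73 FPKM in Blank, 5.12 and 5.05 in Lv5NC, 4.74 and 4.74 in OV55666, 4.02 and 4.71 in Lv3NC and 5.06 and 4.97 in KD553. The Blank libraries held both its highest and its lowest value. HOXD8, another trunk gene, was at 3.99 and 3.72 FPKM in Blank, 3.70 and 3.34 in Lv5NC, 3.35 and 3.42 in OV55666, 3.87 and 3.51 in Lv3NC and 3.82 and 4.0 in KD553, with all values within a ratio of 1.20. The ranges of HOXC8 and HOXB7 over the 10 libraries overlapped, and so did those of each further pair of neighbours in the order of means down to HOXB6, except that HOXD8 (at least 3.34) lay above HOXD9 (at most 3.06). HOXA7 was at 2.58 and 2.34 FPKM in Blank, 2.12 and 1.67 in Lv5NC, 2.03 and 2.0 in OV55666, 2.40 and 1.85 in Lv3NC and 2.22 and 1.90 in KD553, with its highest values in Blank and Lv3NC. HOXB8 was the low gene of group 8 and crossed 1 FPKM in 5 libraries. It was at 1.20 and 1.12 FPKM in Blank, 1.06 and 0.60 in Lv5NC, 0.72 and 0.62 in OV55666, 0.83 and 0.85 in Lv3NC and 1.14 and 1.59 in KD553. Both Blank and both KD553 libraries were above 1, and 1 of the other 6 was. Its RefSeq gene model overlaps that of HOXB9, the only such overlap among the HOX genes, so reads of these genes may not be told apart.

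Of group 9, HOXB9 varied little, with a highest value 1.21 times its lowest, where the median of the 17 genes that were on was 1.48 and that of all 10435 such genes 1.34. It was at 4.07 and 4.80 FPKM in Blank, 4.67 and 4.86 in Lv5NC, 4.71 and 4.03 in OV55666, 4.67 and 4.20 in Lv3NC and 4.26 and 4.66 in KD553. KD553 lay just below Lv5NC, and the Blank libraries spanned most of the range. HOXC9, a gene of the thoracic spinal cord, was at 5.20 and 3.63 FPKM in Blank, 3.70 and 4.93 in Lv5NC, 3.72 and 3.84 in OV55666, 4.25 and 3.67 in Lv3NC and 5.22 and 3.51 in KD553. Both its lowest and its highest value came from KD553. HOXD9, a limb and spine gene, was at 3.06 and 2.62 FPKM in Blank, 2.38 and 2.46 in Lv5NC, 2.65 and 2.67 in OV55666, 2.70 and 2.86 in Lv3NC and 2.49 and 2.77 in KD553. The first Blank library was highest and the Lv5NC libraries lowest. HOXA9 was at 2.64 and 2.26 FPKM in Blank, 1.94 and 2.04 in Lv5NC, 2.03 and 2.08 in OV55666, 2.28 and 1.99 in Lv3NC and 2.52 and 2.36 in KD553. Blank and KD553 lay above Lv5NC and OV55666 without overlap.

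Of group 10, HOXA10 and HOXC10 were on and HOXD10 was off. HOXC10, which marks lumbar levels and the hindlimb, was at 4.28 and 4.29 FPKM in Blank, 3.38 and 4.25 in Lv5NC, 2.67 and 3.37 in OV55666, 3.89 and 2.78 in Lv3NC and 5.24 and 3.42 in KD553. The highest value came from the first KD553 library and the lowest from the first OV55666 library. HOXA10, which is also needed in the uterus, was at 2.63 and 2.99 FPKM in Blank, 2.39 and 2.40 in Lv5NC, 2.47 and 1.90 in OV55666, 2.31 and 2.03 in Lv3NC and 2.77 and 2.43 in KD553. The second Blank library was highest, and Blank lay above both control viruses without overlap.

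Towards the tail end the level dropped in every cluster, but not at the same paralogue group in all. In HOXD the drop fell between HOXD9 and HOXD10: HOXD9 was at 2.38 FPKM or more in every library, whereas HOXD10 was at most 0.07 and listed at 0 in 5 of 10 libraries, and HOXD11 was at most 0.03. In HOXB it fell between HOXB9 and HOXB13, a gene of the prostate and tail, which was at most 0.03. In HOXA it fell after HOXA11, a gene of the forearm and lower leg, which was mixed at 1.20 and 0.90 FPKM in Blank, 1.47 and 1.10 in Lv5NC, 1.70 and 1.42 in OV55666, 0.98 and 1.91 in Lv3NC and 1.64 and 2.34 in KD553. The highest HOXA11 value came from KD553 and the lowest from Blank, with Lv3NC overlapping both. HOXA13, needed for digits and the genital tract, was at most 0.03 FPKM, and HOXD13, which shares that role, at most 0.04. In HOXC the drop fell between HOXC10, at 2.67 FPKM or more, and HOXC11, at most 1.17. HOXC was the exception in that HOXC13, which hair follicles and nails need, was on although HOXC12 before it was off. HOXC11 was at 1.17 and 1.04 FPKM in Blank, 0.95 and 1.04 in Lv5NC, 0.88 and 1.08 in OV55666, 0.94 and 0.93 in Lv3NC and 0.72 and 0.82 in KD553. The KD553 libraries were the 2 lowest and the first Blank library was highest. HOXC12 was at most 0.04. HOXC13 was at 1.30 and 1.10 FPKM in Blank, 1.04 and 1.15 in Lv5NC, 1.07 and 1.30 in OV55666, 1.24 and 1.15 in Lv3NC and 1.92 and 1.23 in KD553. The first KD553 library stood highest, at 1.48 times the next. Each of the 6 genes HOXA13, HOXB13, HOXC12, HOXD10, HOXD11 and HOXD13 was listed at 0 in at least 4 libraries and at 0.07 or less in the rest.

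**Figure D3:**
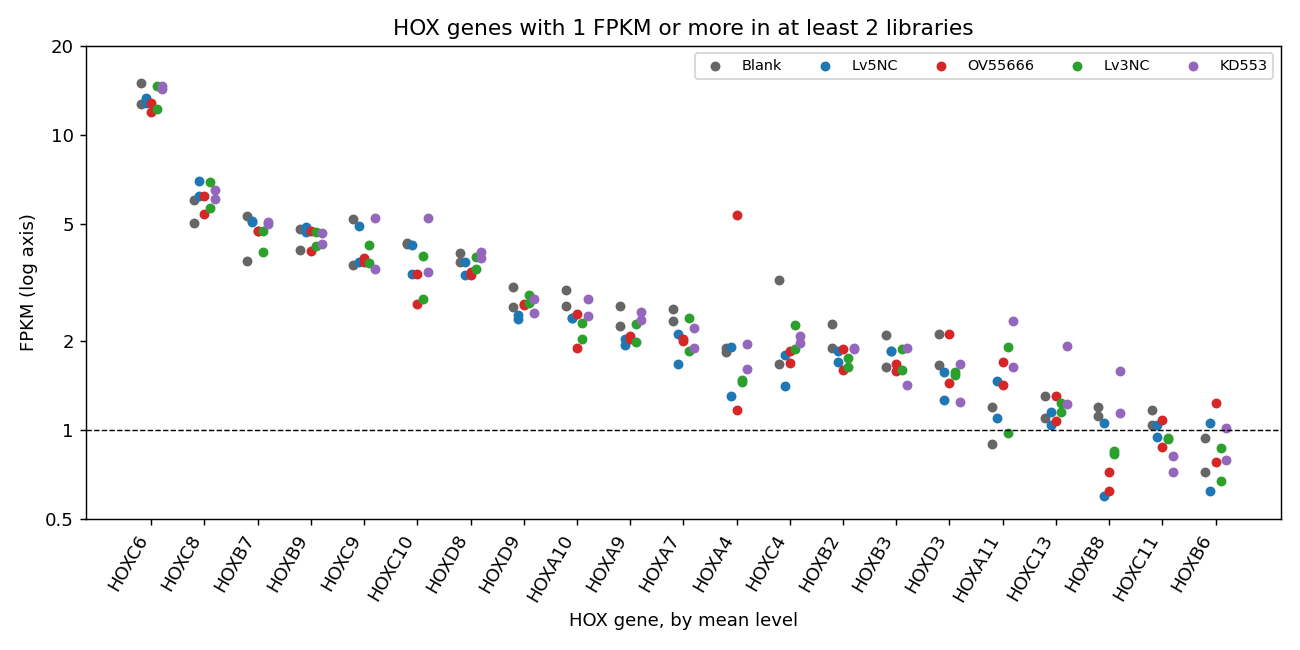
FPKM (log axis) of the 21 HOX genes with at least 1 FPKM in at least 2 libraries, ordered by mean. Each point is a library, coloured by group, and the dashed line marks 1 FPKM. HOXC6 stands alone between 11.9 and 15.0, most genes have the 5 groups mixed, and the single high point of HOXA4 is the first OV55666 library at 5.37.

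Whether HOX genes moved between groups was tested on log2(FPKM + 1) with limma for the 11340 genes with at least 1 FPKM in at least 2 libraries, of which 21 were HOX genes. The other 13 HOX genes, all of them off, were too low to be tested. No HOX gene passed the test among the 5 groups. With limma's moderated F test 0 of 21 had an adjusted p under 0.05, and 1 (HOXB8) had an unadjusted p under 0.05. Of all tested genes 0.326% were called, 37 of 11340, and 1290 had an unadjusted p under 0.05. HOXB8 had the smallest HOX p (adjusted p = 0.423). The next were HOXA11 (adjusted p = 0.617) and HOXA10 (adjusted p = 0.633), and the most abundant gene, HOXC6, had an adjusted p of 0.757.

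Overexpression of lncRNA55666 went with no detectable change in HOX RNA. Against Lv5NC, limma called 0 of 21 HOX genes, with 0 at an unadjusted p under 0.05, and 0% of all tested genes (0 of 11340, with 166 at an unadjusted p under 0.05). Of the 21, 9 were higher and 12 lower, where 58.7% of all tested genes were higher. The median log2 change was −0.02, against 0.02 for all tested genes. The smallest p belonged to HOXC10, at 3.02 ± 0.49 FPKM in OV55666 against 3.81 ± 0.61 in Lv5NC (SD, n = 2), a log2 change of −0.26 ± 0.19 (SE, limma adjusted p = 1). HOXC8 was at 5.79 ± 0.56 against 6.61 ± 0.55 FPKM (−0.16 ± 0.12, limma adjusted p = 1). Leaving out 1 library moved the HOXC10 change to between −0.39 and −0.13 and that of HOXC8 to between −0.25 and −0.08. Both libraries lay outside the range of Lv5NC for 5 HOX genes: HOXC8, HOXC10, HOXB7 and HOXB3 were lower and HOXD9 was higher. This was so for 26.8% of all tested genes, with 9.07% lower and 17.7% higher. The ratio of group means ran from 0.792 for HOXC10 to 2.04 for HOXA4, and the latter rests on the first OV55666 library: the second, at 1.17 FPKM, was below both Lv5NC libraries.

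The knockdown was likewise without a called HOX gene. Against Lv3NC, limma called 0 of 21, with 1 at an unadjusted p under 0.05, where 0.0705% of all tested genes were called (8 of 11340, with 853 at an unadjusted p under 0.05). Of the 21, 15 were higher and 6 lower, where 50.9% of all tested genes were higher. The median log2 change was 0.10, against 0.00 for all tested genes. Leaving out the second Lv3NC library brought the HOX median to 0.01. HOXB8 had the smallest p, at 1.36 ± 0.32 FPKM against 0.84 ± 0.01 (SD, n = 2; log2 0.36 ± 0.15, SE, limma adjusted p = 0.621). Both KD553 libraries of HOXB8 were above both Lv3NC libraries, and the Blank libraries, at 1.20 and 1.12, overlapped with them. HOXA10 followed, at 2.60 ± 0.24 against 2.17 ± 0.20 (0.18 ± 0.12, limma adjusted p = 0.797). Groups did not overlap for 7 HOX genes, with HOXA4, HOXA9, HOXA10, HOXB2, HOXB7 and HOXB8 higher and HOXC11 lower, where 19.3% of all tested genes were higher without overlap, 18.3% lower and 37.7% either. Of the smooth muscle genes in the basal marker list, ACTA2 had a higher estimate too (log2 0.37 ± 0.21, SE). Those of MYLK (0.17 ± 0.27) and CNN1 (0.04 ± 0.48) were above 0 by less than their SE. The mean FPKM of CNN1 was lower in KD553 (9.015 against 9.32). The summed basal list was at 1247 to 1264 FPKM in KD553 and 969 to 1040 in Lv3NC. It was mostly ACTA2, with means of 991 FPKM in KD553 and 769 in Lv3NC. The leukocyte list summed to 29.2 to 36.3 FPKM in KD553 and 23.0 to 25.1 in Lv3NC. Of the fibroblast markers 11 of 12 had higher estimates (median 0.09, 0 called), with a summed level of 22013 to 22239 FPKM in KD553 and 20348 to 21733 in Lv3NC. None of these sums overlapped between the groups, which was also so for 37.7% of single tested genes. The leukocyte sum was mostly CD14, at 34.9 and 26.9 FPKM in KD553 and 21.6 and 22.5 in Lv3NC. These sums thus do not show a shift of a whole cell type. The part of these lists in the HOX values was not tested. HOXC6 was at 14.5 ± 0.28 against 13.4 ± 1.66 FPKM, with overlapping libraries.

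Set against both control viruses instead, the knockdown gave the same outcome, with 0 of 21 HOX genes called by limma and 1 at an unadjusted p under 0.05. Of all tested genes 0.097% were called (11, with 1100 at an unadjusted p under 0.05). HOXB8 was again first (log2 0.37 ± 0.13, limma adjusted p = 0.389), followed by HOXC13 (0.25 ± 0.12, limma adjusted p = 0.559). Without the first KD553 library the HOXC13 change was 0.06, and without the second the HOXB8 change was 0.23. KD553 did not overlap with the 4 control virus libraries for HOXA9, HOXA10, HOXB2 and HOXB8 (higher) and HOXC11 (lower), where 12.9% of all tested genes were higher, 8.54% lower and 21.5% either. In the contrast of the overexpression effect with the knockdown effect limma called 0 of 21 HOX genes and 0% of all tested genes, with 1 and 386 at an unadjusted p under 0.05. HOXB8 (−0.48 ± 0.21) and HOXC10 (−0.55 ± 0.26) had the smallest p there, each with a limma adjusted p of 1.00.

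The intervals show the uncertainty of each estimate before adjustment over all tested genes. Changes larger than their reach could therefore also go uncalled. That of HOXB8 in the knockdown did, with an interval of 0.02 to 0.69. For the median HOX gene the 95% interval reached 0.282 to either side on the log2(FPKM + 1) scale, against 0.245 for the median of all tested genes. It was narrowest for HOXD8 (0.200) and widest for HOXA4 (0.981). At levels of 1 to 5 FPKM this scale understates ratios, so a change of modest size in a single HOX gene was not detectable with 2 libraries a group. The ratios of group means ran from 0.824 (HOXC11) to 1.63 (HOXB8) in the knockdown.

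**Figure D4:**
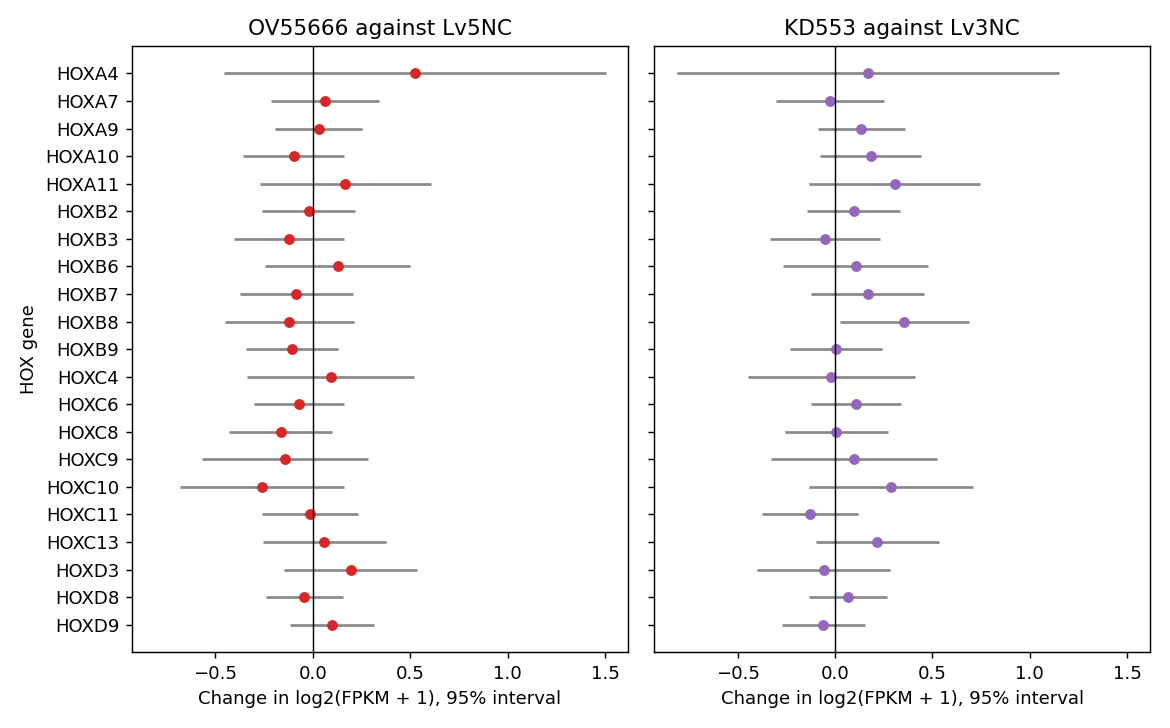
Change in log2(FPKM + 1) of the 21 tested HOX genes for OV55666 against Lv5NC (left) and KD553 against Lv3NC (right). Points are estimates of the limma fit and lines their 95% intervals. The intervals include 0, except that of HOXB8 in the knockdown (0.02 to 0.69, not called after adjustment), and HOXA4 has the widest.

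The control viruses were also compared with Blank, with the same Blank libraries in both comparisons. Lv5NC had 0 of 21 HOX genes called by limma and 0 at an unadjusted p under 0.05, where 0.291% of all tested genes were called (33, with 1433 at an unadjusted p under 0.05). Lv3NC had 0 of 21 called and 1 at an unadjusted p under 0.05, where 0.132% of all tested genes were called (15, with 1677). Most estimates were below 0: 15 of 21 HOX genes were lower in Lv5NC (median −0.10, all genes −0.01) and 18 of 21 in Lv3NC (median −0.11, all genes 0.02). Of all 11340 tested genes, 5909 were lower in Lv5NC and 5255 in Lv3NC. The Lv5NC median was −0.06 without the first Blank library. That of Lv3NC was −0.05 without the second Lv3NC library, −0.06 without the first Blank library and −0.18 without the second. Both Lv5NC libraries lay below both Blank libraries for 9 HOX genes, where 23.8% of all tested genes did, and both above for HOXC8, where 15.5% did and 39.4% lay on either side. For Lv3NC 7 lay below, where 21.9% did, and 0 above, where 24.3% did and 46.2% lay on either side. The first Blank library was the highest of all 10 for 8 of the 21 genes, and the second for 2. The share of all tested genes for which this was so was not counted. Of the fibroblast markers 10 of 12 also had estimates below 0 for either virus (median −0.25 for both, 0 called), while their summed level overlapped, at 20863 to 22074 FPKM in Blank and 20348 to 22489 in the control viruses. The 3 smooth muscle genes had estimates below Blank as well, with a summed basal list of 1112 to 1846 FPKM in Blank against 927 to 1068 in Lv5NC and 969 to 1040 in Lv3NC. The second Blank library held the highest value of all 3, with ACTA2 at 1246.8. In the first Blank library ACTA2, at 788.21, was below the first Lv3NC library (800.25). MYLK and CNN1 there, at 303.84 and 19.71, were above every control virus library. The leukocyte list ran from 18.2 to 27.8 FPKM in Blank, 34.9 to 39.0 in Lv5NC and 23.0 to 25.1 in Lv3NC. The part of these lists in the HOX values was not tested.

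In Lv5NC the smallest p belonged to HOXA7, at 1.90 ± 0.32 FPKM against 2.46 ± 0.17 in Blank (SD, n = 2; log2 −0.26 ± 0.12, SE, limma adjusted p = 0.423). HOXA9 was at 1.99 ± 0.07 against 2.45 ± 0.27 (−0.20 ± 0.10, limma adjusted p = 0.437). In Lv3NC it was HOXA10, at 2.17 ± 0.20 against 2.81 ± 0.26 (−0.27 ± 0.12, limma adjusted p = 0.331), then HOXB2, at 1.70 ± 0.09 against 2.09 ± 0.28 (−0.19 ± 0.11, limma adjusted p = 0.430). A single HOX call arose when a library was left out: without the first Blank library HOXC4 was lower in Lv5NC (log2 −0.70 ± 0.14, limma adjusted p = 0.0473), the remaining Blank library being the one with 3.22 FPKM. With both Blank libraries HOXC4 was at 1.60 ± 0.28 against 2.44 ± 1.10 (−0.37 ± 0.19, limma adjusted p = 0.464).

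HOX proteins bind DNA together with partners of the TALE class, the PBX, MEIS and PKNOX proteins, and 7 of 9 such genes were on. They included PBX2 (mean 9.87 FPKM), MEIS3 (mean 9.64) and PBX3 (mean 4.94). PBX4 and PKNOX2 were off, at most 0.12 and 0.19. No tested member was called in the contrasts or the F test (0 of 7), and the smallest adjusted p in the knockdown was that of MEIS3 (limma adjusted p = 0.554), at 7.64 and 6.01 FPKM in Blank, 10.6 and 8.99 in Lv5NC, 12.6 and 9.49 in OV55666, 7.17 and 9.61 in Lv3NC and 11.2 and 13.1 in KD553. Of the Polycomb and trithorax group, which keep HOX genes silent or active, 26 of 27 were on and the other, CBX7, was mixed (0.96 to 1.38). The highest were RBBP4 (mean 61.2), PHC2 (42.6), RBBP7 (41.4) and RING1 (28.0), and EZH2, which writes the silencing mark, had a mean of 15.0. None of the 27 was called in the contrasts or the F test, and in the knockdown 11 had estimates above 0 and 16 below (median −0.04). Retinoic acid sets HOX expression in the embryo through its receptors. RARG and RARA (means 25.5 and 25.3) were on, with the carrier CRABP2 at 147.0 and RXRA at 14.0, while RARB was off (at most 0.31). Of the enzymes that make retinoic acid, RDH10 (4.50 to 6.11) and ALDH1A1 (1.93 to 4.90) were on, and ALDH1A3 (at most 0.64) and ALDH1A2 (at most 0.05) were off. By limma 0 of 9 tested genes of this list were called.

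Other transcription factors that mark body position gave a mixed picture of the same kind, with 17 of 38 measured genes on, 2 mixed and 19 off. The limb and skin mesenchyme factors PRRX1 and PRRX2 were high (means 200.6 and 112.7 FPKM), followed by MEOX2 (23.6) and MSX2 (22.8). TBX5, a forelimb and heart gene, was on (2.15 to 3.16), whereas PITX1, a hindlimb gene, was off (0.38 to 0.61). The head genes OTX1 and OTX2 were at most 0.04 and 0.02 FPKM, PAX3 at most 0.01 and CDX1, a regulator of HOX genes in the embryo, at most 0.07. MSX2 and TBX3 were the members called in a comparison. Both act in limb and mammary bud development. MSX2 was at 19.1 and 17.02 FPKM in Blank, 20.1 and 20.7 in Lv5NC, 22.3 and 23.2 in OV55666, 18.8 and 21.6 in Lv3NC and 32.4 and 32.9 in KD553. It rose in KD553 against Lv3NC (log2 0.67 ± 0.09, limma adjusted p = 0.0454), as it did against both control viruses (limma adjusted p = 0.0153), a call lost under 5 of the 6 ways of leaving out a library. TBX3 was at 5.03 and 3.73 FPKM in Blank, 9.88 and 12.02 in Lv5NC, 9.53 and 10.6 in OV55666, 8.66 and 7.30 in Lv3NC and 11.2 and 8.85 in KD553. It rose in Lv5NC against Blank (1.16 ± 0.15, limma adjusted p = 0.0364). Leaving out any of the 4 libraries ended the MSX2 call against Lv3NC (limma adjusted p from 0.104 to 0.521), and leaving out the second Blank library or either Lv5NC library ended that of TBX3 (from 0.0953 to 0.222). The MSX2 change stayed between 0.58 and 0.76 and that of TBX3 between 0.98 and 1.33. The MSX2 call against Lv3NC also ended with no filter on low values (limma adjusted p = 0.0959), without the variance trend (0.0725) and with only the groups compared (0.214), and that of TBX3 with no filter (0.0771).

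**Figure D5:**
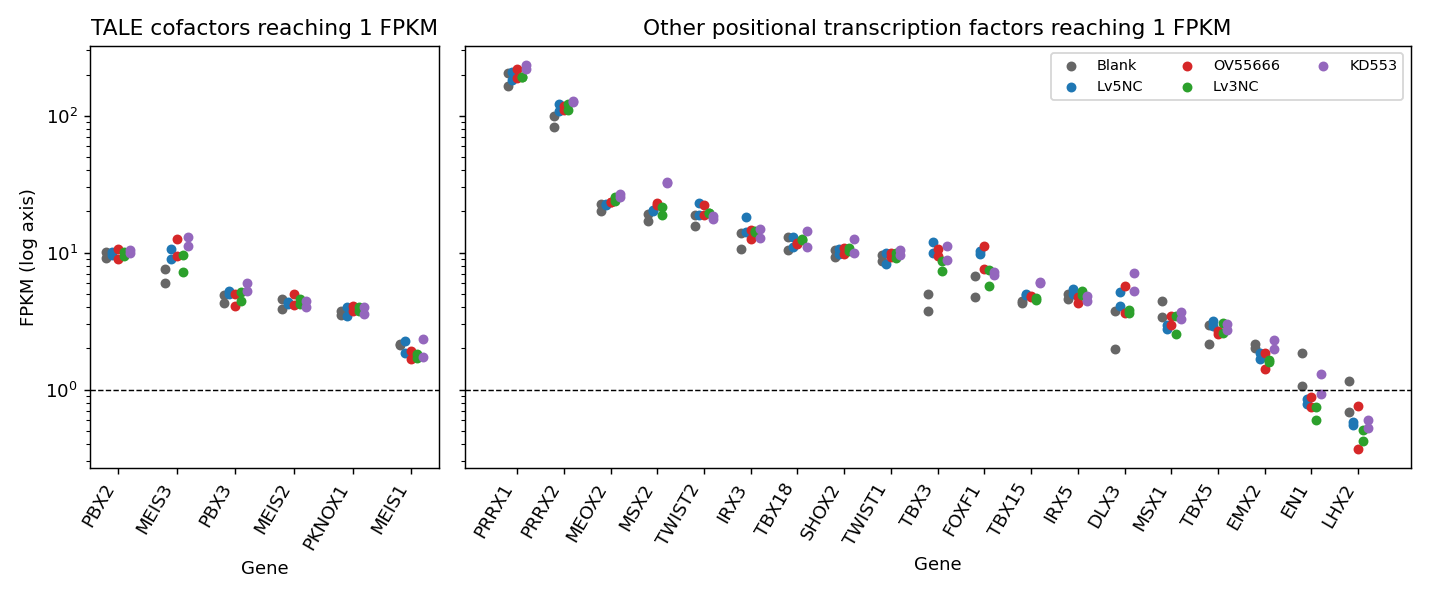
FPKM (log axis) in each library of TALE cofactors (left) and other positional transcription factors (right) that reach 1 FPKM, ordered by mean and coloured by group. The dashed line marks 1 FPKM. PRRX1 and PRRX2 lie highest, and both KD553 points of MSX2 (32.4 and 32.9) lie above all others of that gene.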

How the data were processed

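Per the file headers, the authors deposited FPKM values of 17197 genes in 10 libraries, with 2 decimals. The aligner, counter, strand setting and build are not stated. Gene identifiers were paired with symbols through the RefSeq table of ARS1.2, where 16658 matched, and all 37899 RefSeq transcripts named in the deposited table are in it. It was used for names and gene order only. No sequences are shown.

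Values were analysed as log2(FPKM + 1) for the 11340 genes with at least 1 FPKM in at least 2 libraries, with limma 3.58.1 in R 4.3.3. The model had a mean for each group over all 10 libraries (5 residual degrees of freedom) and moderated variances with trend and robust options. Benjamini-Hochberg adjustment ran over the tested genes, with calls under 0.05. The members and lists were chosen with earlier results of these data known. Log2 changes are given for called members or, where there were none, the 2 with the smallest p. Members of other lists were named by highest mean, by a call, or as body position markers near 0. Other values singled out, such as HOXA4 and HOXC4, PITX1 and TBX5, were picked with their values known. The fit was tested on simulated data with independent noise and planted changes larger than the HOX estimates given here. That test does not show whether changes of the HOX size would be found. Titles and descriptions number the KD553 samples differently, so the KD553 columns carry no sample number. Relative depth came from genes with values in 2 to 5 libraries, the highest under 1.5 times the lowest. Alternatives were other pseudocounts, no filter, centring, no trend, a replicate block, fewer groups and libraries left out. A block within each virus arm was added after the data were seen. Some genes are not reported here.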

Additional observations from a re-analysis of the deposited data

How the results depend on the processing

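Of 93 alternative counts of called HOX genes, over 6 comparisons and the test among groups, 92 stayed at 0. The exception came from leaving out libraries in Lv5NC against Blank, where the count ranged from 0 to 1. For the other comparisons the range was 0 to 0. The 2 HOX genes with the smallest p in each comparison kept the direction of their change and stayed uncalled in all 152 alternatives: pseudocounts of 0.1 and 0.5, no filter on low values, libraries centred on a common median, no trend, a replicate block over all groups or within each virus arm, only the groups compared, and libraries left out. These genes were picked by their p in the main fit. The settings without a filter or trend, with a block or with fewer groups leave the estimates as they are. Direction was thus open only under the other pseudocounts, centring and libraries left out. Sizes moved more: in the knockdown HOXB8 ran from 0.22 to 0.49 with libraries left out. With a threshold of 2 FPKM, 8 HOX genes were on and 9 mixed, and with 0.5 FPKM 21 were on, 3 mixed and 10 off. Counts over all genes depended more on the processing: 0 to 11 in the knockdown, 0 to 279 in Lv5NC and 0 to 284 in Lv3NC against Blank, and 0 to 122 among the 5 groups. The highest of the last 3 came without the first Blank library. The HOX median of the knockdown ranged from 0.01 to 0.12 and that of overexpression from −0.08 to −0.00, and without a filter, over all 34 HOX genes, the former was 0.02. Between libraries the median of all genes differed by at most 0.0871 (log2). With the replicate block over all groups, the counts of called HOX genes were 0 in every comparison, and the calls of MSX2 against Lv3NC (adjusted p = 0.127) and against both controls (0.0516) and of TBX3 (0.0779) ended. Same-numbered libraries deviated together in 3 of 10 pairs of groups: Lv5NC with OV55666 (r = 0.503), Lv3NC with KD553 (0.444) and Blank with KD553 (0.160). Across the virus arms r ran from −0.622 to −0.383, so 1 pairing over all groups is not shown, while pairing within an arm was not settled, and the KD553 numbers differ between the titles and the descriptions. A replicate block within each virus arm, chosen after seeing the data, gave 0 called HOX genes in every comparison (lowest adjusted p 0.0783 among the 5 groups and 0.316 in the knockdown). With it, 11 of all genes were called in the knockdown, 1 in overexpression, and the MSX2 call against Lv3NC ended (0.0680). The depth in reads is unknown, which limits what can be said of genes near or below 1 FPKM.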

Other observations

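A row outside the members bears on paralogue group 4. The authors' table holds a gene without an NCBI identifier whose description names Hox-B4, a gene the RefSeq table does not list under that symbol. The match of the description was not checked against sequence. The row was at 2.82 and 3.02 FPKM in Blank, 2.29 and 2.48 in Lv5NC, 2.67 and 2.48 in OV55666, 3.14 and 2.05 in Lv3NC and 2.70 and 2.41 in KD553. All 10 values were at 1 FPKM or more and lay between 2.05 and 3.14. The mean of the row was 2.61 FPKM. Of the group 4 members, HOXA4 was at most 1.95 outside the first OV55666 library (5.37), and HOXC4 ran from 1.41 to 3.22. limma called no change of this row in the 6 contrasts: the log2 change was 0.08 ± 0.14 (SE) in OV55666 against Lv5NC (adjusted p = 1) and 0.00 ± 0.14 in KD553 against Lv3NC (adjusted p = 1.00).

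The description of the HOXC8 row names Hox-C9 beside Hox-C8, and that row holds 1 transcript that RefSeq does not list. The rows of HOXC6, HOXC4 and HOXB9 hold 3 each. The RefSeq order has 12 other genes between the HOX genes of the clusters, 8 long noncoding RNAs and 4 microRNAs. None of them had a row, and all 16658 rows matched to RefSeq were protein coding, so RNAs of this kind are not analysed here.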
